A study of Mus musculus with 22 samples.

Results

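The BCL2 family decides whether the outer mitochondrial membrane of a cell is opened, and 10 of its genes were followed in sorted mouse thymocytes: Bcl2, Bcl2l1, Mcl1, Bcl2l11, Bax, Bak1, Bbc3, Pmaip1, Bid and Bad. They were chosen by name, as the members of the family best known in thymocyte survival, with earlier results of these data known. All 10 were found among the 43430 genes measured. The RNA of 22 libraries in 7 groups came from thymocytes sorted as CD45.1+ and positive for both CD4 and CD8, a step of T cell maturation in the thymus called double-positive. The Vav knockouts were VavCre E2aF/F mice, with 3 libraries at 4 weeks and 3 at 8 weeks of age, and the Lck knockouts were LckCre E2aF/F mice, with 3 libraries at 4 weeks. The transplanted Vav knockouts, with 4 libraries, were VavCre E2aF/F mice at 8 weeks, irradiated at a sublethal dose, given wild-type bone marrow as competitors and analysed 4 weeks after the transplant. The controls, called WT in the labels, were untreated E2aF/F mice with no Cre named, with 3 libraries beside each of the Vav knockouts at 4 weeks, the Lck knockouts at 4 weeks and both 8-week knockout groups. Every group thus carried the floxed E2a alleles. E2a is the gene Tcf3, whose products are E proteins, transcription factors that bind the DNA motif called the E-box. Vav-Cre acts across blood cell lineages and Lck-Cre in developing T cells. The labels do not say whether host, donor or competitor cells bore CD45.1 after the transplant. The labels name replicates and not animals, so a p-value measures the spread between libraries, which may be technical.

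The family has 3 roles. Bcl2, Bcl2l1 (whose product is BCL-XL) and Mcl1 keep cells alive by holding the other members in check. Bax and Bak1 are the effectors, which form pores in the outer mitochondrial membrane. Bcl2l11 (BIM), Bbc3 (PUMA), Pmaip1 (NOXA), Bid and Bad carry only the BH3 domain and relay stress, receptor or damage signals to the others. Double-positive thymocytes are known for depending on BCL-XL and MCL-1 and for holding little BCL2, which earlier and mature T cells carry at higher levels. BIM is known for the deletion of thymocytes that recognise self.

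Levels are FPKM, which divides the reads of a gene by its length and by the depth of the library, so they can be set side by side between genes. The low values implied between 5.501 M and 37.3 M reads per library (M, mega). Lck knockout replicate 2 was the lowest, while the rest of its table had 13.9 M to 16.2 M. Tcf3 itself was at 1.15 to 1.39 FPKM in Vav knockouts and 6.39 to 7.47 in controls at 4 weeks, and at 1.198 to 1.33 in Lck knockouts and 6.98 to 8.22 in their controls. At 8 weeks it was at 1.23 to 2.13 FPKM in Vav knockouts and 1.21 to 2.32 in transplanted Vav knockouts, against 7.49 to 7.59 in controls. All 10 double-positive markers were detected (1 FPKM or more in some library), Cd4 at 96.8 FPKM or more and Cd8a at 157 or more in every library. Their summed level was lower in each knockout group: 3028 to 3674 FPKM in Vav knockouts and 4167 to 4270 in controls at 4 weeks, and 3795 to 3920 in Lck knockouts and 4133 to 4232 in controls. At 8 weeks the sum was 1916 to 2206 FPKM in Vav knockouts and 1308 to 3230 in transplanted Vav knockouts, against 4115 to 4465 in controls. In bulk samples, fewer cells of a type and less RNA per cell cannot be told apart.

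Other marker lists moved with the knockouts too. The 8 mature T cell markers summed to 68.6 to 128 FPKM in Vav knockouts and 99.8 to 274 in transplanted ones, against 38.4 to 41.3 in controls at 8 weeks. Il7r is among them and alone was at 117 FPKM in transplanted replicate 2, where the sum was 150. By the limma test described below, 1 of the 8 was called higher and 0 lower in each 8-week knockout group. Of all genes, 4.65% were called higher in Vav knockouts and 4.59% in transplanted ones. At 4 weeks the mature T cell markers summed to 77.3 to 85.7 in Vav knockouts and 27.1 to 28.7 in controls. The 5 markers of earlier thymocytes summed to 20.5 to 38.8 FPKM in Vav knockouts and 27.5 to 145 in transplanted ones, against 2.77 to 3.26 in controls at 8 weeks. At 4 weeks that sum was 24.99 to 54.9 FPKM in Vav knockouts and 3.60 to 3.84 in controls. For dendritic cells the 5 markers summed to 6.33 to 9.21 FPKM in Vav knockouts, 3.01 to 5.22 in transplanted ones and 2.42 to 2.59 in controls at 8 weeks. Transplanted replicate 3 had the highest macrophage and granulocyte sum (21.8 FPKM, against 2.12 to 5.31 in replicates 1, 2 and 4) and the highest erythroid sum (72.6 FPKM, against 26.9 to 49.9). The B cell sum was 0.351 to 0.365 FPKM in Vav knockouts and 0.579 to 1.93 in transplanted ones, against 6.27 to 7.74 in controls at 8 weeks. At 4 weeks it was 0.763 to 1.21 FPKM in Vav knockouts and 6.39 to 7.08 in controls, and the dendritic cell sum 1.58 to 3.20 in Vav knockouts and 0.618 to 0.822 in controls. The stroma sum was 2.57 to 4.16 FPKM in Vav knockouts and 1.07 to 5.72 in transplanted ones, against 1.80 to 2.01 in controls at 8 weeks. In Lck knockouts the mature T cell sum was 42.4 to 46.7 FPKM, against 36.1 to 41.5 in controls, and the sum of earlier thymocyte markers 5.27 to 7.48, against 3.03 to 4.40. Under 1 FPKM in every library were 4 of 6 B cell markers, 2 of 6 macrophage and granulocyte markers, 2 of 5 dendritic, 4 of 6 stroma and 2 of 4 erythroid markers. The others reached higher levels, such as Cd79b at up to 6.61 FPKM, Lyz2 16.1, H2-Ab1 7.11 and Pdgfrb 5.14, while Ms4a1, Pax5 and Adgre1 stayed at or below 0.0274 FPKM. The part of these shifts in the values of the BCL2 family was not tested.

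A pair of libraries stood apart within their groups. Replicate 2 of the 4-week Vav knockouts had a double-positive marker sum of 3028 FPKM, against 3674 and 3549 in the other two. Replicate 3 of the transplanted Vav knockouts had 3230 FPKM, against 1308, 1459 and 2183 in replicates 1, 2 and 4.

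In the controls the family kept a steep order of levels. In 8-week controls Mcl1 averaged 107 ± 14.5 FPKM (SD, n = 3), followed by Bax, Bcl2l1 and Bak1, and these neighbours did not overlap in range. Bbc3 and Bcl2l11 came next and overlapped, then Bid, Bad, Bcl2 at 2.06 ± 0.411 FPKM and Pmaip1 at 1.14 ± 0.429 FPKM (SD, n = 3 each). In Vav knockouts of the same age Bax stood at the top with a mean of 69.5 ± 6.72 FPKM and Mcl1 beside it at 67.7 ± 6.29 FPKM (SD, n = 3 each), with overlapping ranges. Bak1 came before Bcl2l1 there, again with overlapping ranges, and Bcl2 overlapped Pmaip1 at the bottom. These orders are descriptions without a test.

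**Figure D1:**
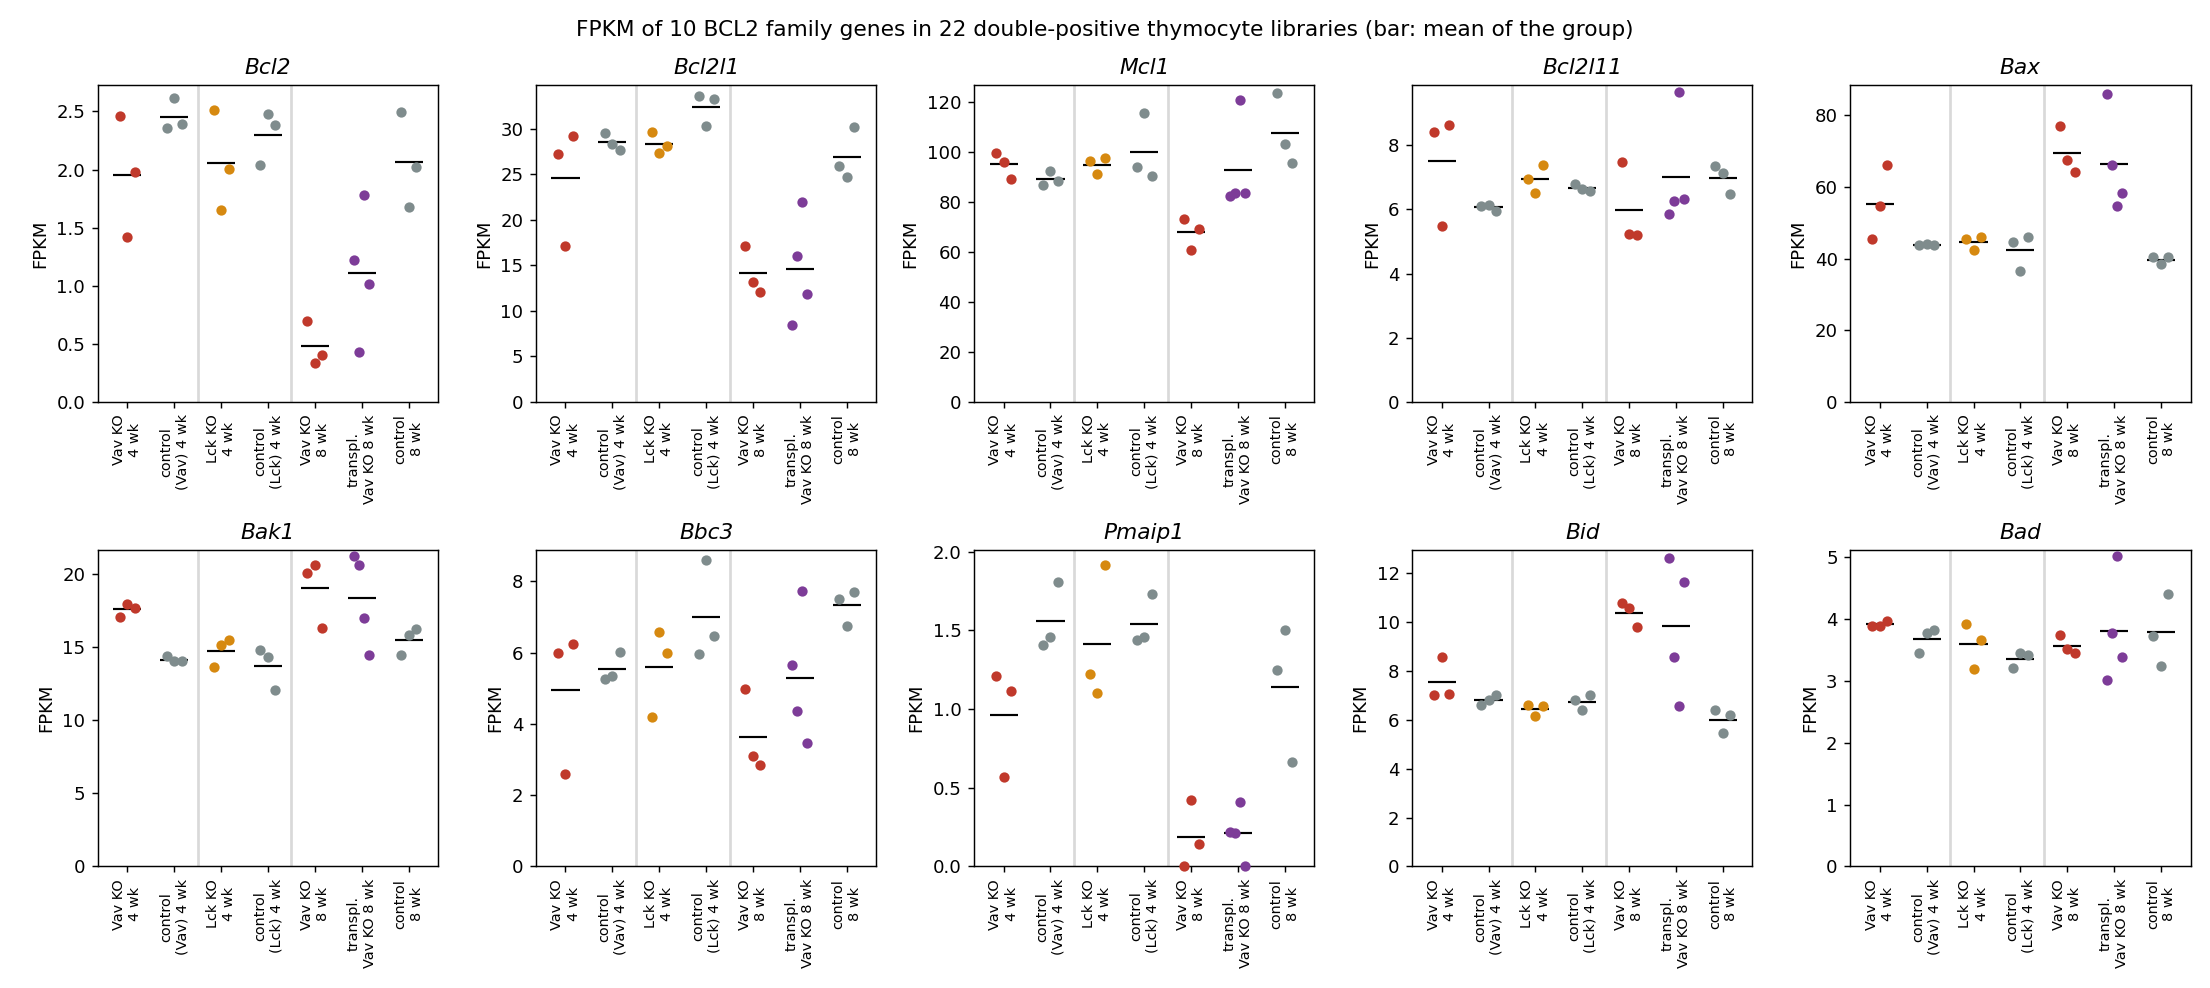
FPKM of each of the 10 genes in each of the 22 libraries, with knockout groups left of the controls of their table; points are libraries and short bars group means, and each panel has its own linear axis from 0. At 8 weeks the Vav knockouts lie at 0.333 to 0.697 FPKM for Bcl2 and 64.1 to 77.0 FPKM for Bax, outside the control ranges of 1.67 to 2.49 and 38.4 to 40.4 FPKM.

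Each knockout group was compared with the controls of its own table by limma on log2(FPKM + 1), with p-values adjusted over all genes tested (Benjamini-Hochberg) and a gene called below an adjusted p of 0.05. At 8 weeks, Bax rose and Bcl2 fell in Vav knockouts, the 2 called of the 9 genes tested. Of all 11632 genes tested, 4.65% were called higher and 4.45% lower. In transplanted Vav knockouts Bax rose and was the only gene called of the same 9, where 4.59% of all genes were called higher and 4.6% lower. At 4 weeks, Bak1 rose in Vav knockouts and was the only gene called of 10, against 7.63% higher and 6.08% lower of 10828 genes. In Lck knockouts 0 of 10 genes were called by limma, with 1 lower (Bcl2l1) at an unadjusted p under 0.05, against 0.201% higher and 0.804% lower of 10946 genes. Counts of 0 to 2 among 9 or 10 genes lie close to what these shares would give, so the counts are no result about the family as a group. These shares themselves rest on single libraries: leaving out 1 gave 142 to 3535 called genes in place of 1059 for Vav knockouts at 8 weeks and 199 to 3814 in place of 1069 for transplanted ones. At 4 weeks it gave 490 to 1560 in place of 1484 for Vav knockouts and 2 to 83 in place of 110 for Lck knockouts. The highest 8-week counts came without transplanted replicate 3, when 30.8% and 33.2% of all genes were called in Vav and transplanted knockouts, so a member called without it is read against those shares. Both 8-week knockout groups were set against the same 3 controls. The median change of the genes tested was 0.08 in Vav knockouts at 4 weeks, -0.06 in Lck knockouts, -0.21 in Vav knockouts at 8 weeks and -0.02 in transplanted ones on the log2 scale. The medians over all genes lay between -0.01 and 0.02. Pmaip1 did not pass the filter on low values at 8 weeks and was not tested there.

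**Figure D2:**
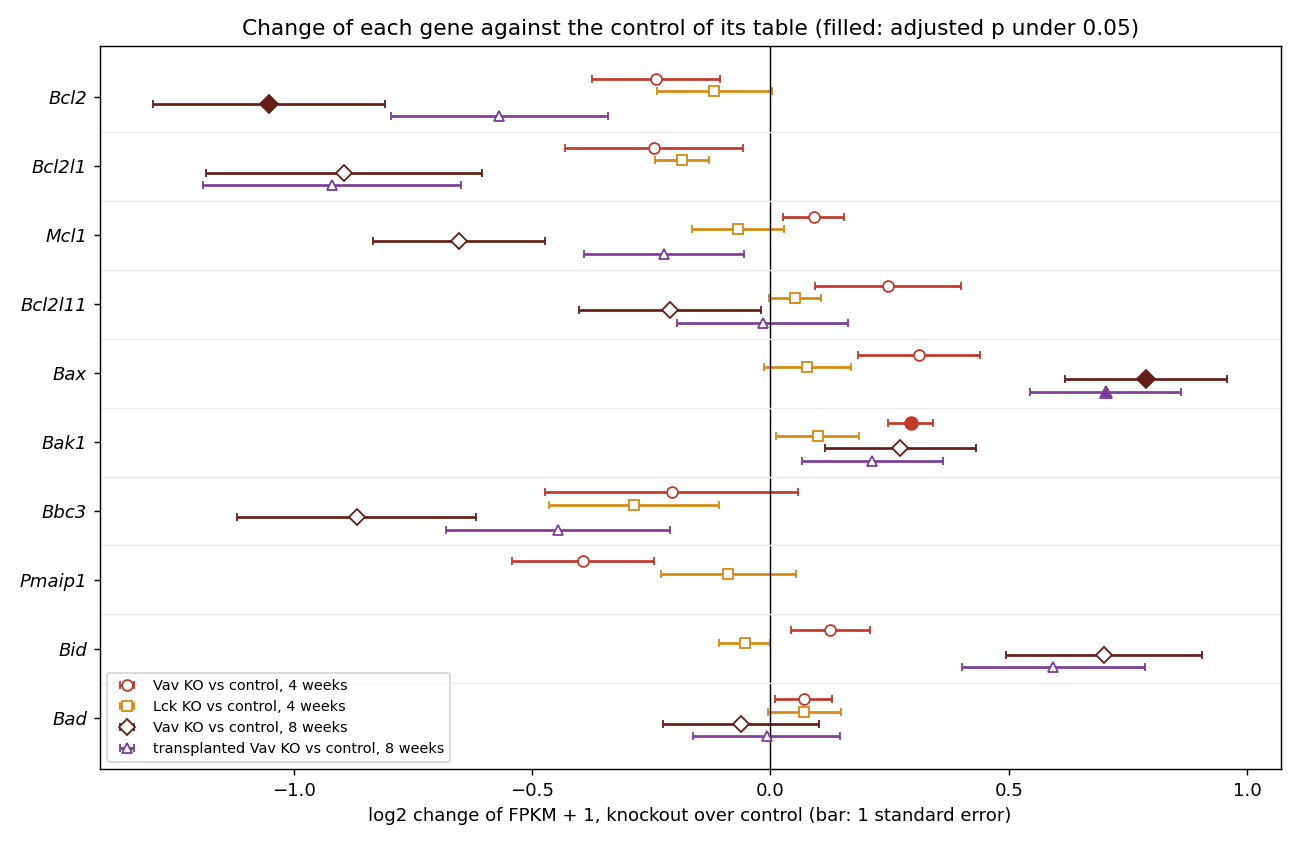
Change of each gene on the log2(FPKM + 1) scale, knockout over control, with bars of 1 standard error; filled symbols are called (adjusted p under 0.05). Bcl2 and Bax in 8-week Vav knockouts, Bax in transplanted Vav knockouts and Bak1 in 4-week Vav knockouts are filled, and Pmaip1 has no 8-week symbols because it was not tested.

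Bcl2 was the lowest of the genes that protect cells and the only one called lower. At 8 weeks it was at 0.697, 0.333 and 0.403 FPKM in Vav knockouts and 1.22, 0.432, 1.78 and 1.01 FPKM in transplanted Vav knockouts, against 2.49, 1.67 and 2.02 FPKM in controls. All 3 Vav knockouts lay below every control, while transplanted replicate 3 lay above the lowest control and the other three below it. The change was -1.05 (SE 0.24, adjusted p = 0.031) in Vav knockouts and -0.57 (SE 0.23, adjusted p = 0.15) in transplanted ones. The Vav call was lost when any Vav knockout or control library was left out (adjusted p between 0.064 and 0.14), with the change between -0.95 and -1.16. On the FPKM scale the mean in Vav knockouts was 0.231 times that in controls. The log2(FPKM + 1) scale understates a change this low, and with a pseudocount of 0.1 the change was -1.94. Without transplanted replicate 3, the transplanted change was -0.71 (adjusted p = 0.029), and without another library its adjusted p was up to 0.40.

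At 4 weeks Bcl2 was at 2.46, 1.42 and 1.98 FPKM in Vav knockouts and 2.36, 2.61 and 2.39 in controls. In Lck knockouts it was at 2.51, 1.65 and 2.01 FPKM, against 2.04, 2.48 and 2.38 in controls. The groups overlapped for both deletions, with changes of -0.24 (adjusted p = 0.29) and -0.12 (adjusted p = 0.75). Vav knockout replicate 2 was the lowest library of its table, and without it the Vav change was -0.10 (adjusted p = 0.47).

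Bcl2l1, whose product BCL-XL sustains double-positive thymocytes, was at 17.1, 13.2 and 12.1 FPKM in Vav knockouts at 8 weeks. Transplanted Vav knockouts had 8.41, 15.98, 21.99 and 11.8 FPKM, and controls 25.9, 24.7 and 30.1 FPKM. Every knockout library of that table lay below every control, but the changes of -0.89 (SE 0.29, adjusted p = 0.082) and -0.92 (SE 0.27, adjusted p = 0.066) did not pass the test. Without transplanted replicate 3, whose spread entered the shared fit, they were -0.89 (adjusted p = 0.016) and -1.13 (adjusted p = 0.0056). Leaving out another library gave an adjusted p of up to 0.22 for both. At 4 weeks Bcl2l1 was at 27.3, 17.1 and 29.2 FPKM in Vav knockouts, against 29.6, 28.3 and 27.7 FPKM in controls. The low value was replicate 2, and the change of -0.24 (adjusted p = 0.44) was -0.01 without it. Lck knockouts had 29.6, 27.3 and 28.1 FPKM, against 33.6, 30.3 and 33.3 FPKM in controls, all lower than every control, with a change of -0.19 (adjusted p = 0.23).

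Mcl1, the most abundant member in the controls, was at 73.0, 60.7 and 69.2 FPKM in Vav knockouts at 8 weeks, against 123, 103 and 95.5 FPKM in controls. The groups did not overlap, and the change of -0.65 (SE 0.18) narrowly missed the test (adjusted p = 0.053). Transplanted Vav knockouts had 82.3, 83.4, 121 and 83.5 FPKM, with replicate 3 inside the control range and the other three below it, and a change of -0.22 (adjusted p = 0.43). Without replicate 3, these changes were -0.65 (adjusted p = 0.0041) and -0.36 (adjusted p = 0.040). Leaving out another library gave an adjusted p of up to 0.19 and 0.78. At 4 weeks Mcl1 was at 99.5, 96.0 and 89.2 FPKM in Vav knockouts and 86.6, 92.2 and 88.2 in controls, and at 96.0, 90.9 and 97.3 FPKM in Lck knockouts and 93.9, 116 and 90.2 in controls. Both pairs of groups overlapped.

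Of the effectors, Bax rose in both 8-week knockout groups. It was at 77.0, 67.5 and 64.1 FPKM in Vav knockouts and 86.0, 66.3, 54.6 and 58.5 FPKM in transplanted Vav knockouts, against 40.4, 38.4 and 40.4 FPKM in controls. Each of the 7 knockout libraries was above every control. The changes were 0.79 (SE 0.17, adjusted p = 0.023) and 0.70 (SE 0.16, adjusted p = 0.026), or 1.75 and 1.67 times the control mean in FPKM. The Vav call was lost whenever a Vav knockout or control library was left out (adjusted p up to 0.11), and the transplanted call without any of the 3 controls (up to 0.13), while the changes stayed between 0.71 and 0.84 and between 0.57 and 0.79. Gm45808, on the same strand, shares 12.2% of the exon bases of Bax. With the 2 groups alone, the transplanted change of 0.70 had an adjusted p of 0.069. At 4 weeks Bax was at 45.4, 54.7 and 66.0 FPKM in Vav knockouts, against 43.7, 44.1 and 43.9 FPKM in controls. The Vav knockouts were all higher but spread widely, and the change of 0.31 (SE 0.13) was not called (adjusted p = 0.16). Without replicate 1 it was 0.44 (adjusted p = 0.033), and without another library the adjusted p was up to 0.32. Lck knockouts had 45.5, 42.4 and 46.1 FPKM and their controls 44.6, 36.7 and 46.1 FPKM, with overlap.

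Bak1, the other pore former, rose in Vav knockouts at 4 weeks, by a small amount that the replicates shared closely. It was at 17.1, 17.99 and 17.7 FPKM there, against 14.4, 14.1 and 14.0 FPKM in controls, a change of 0.29 (SE 0.05, adjusted p = 0.011). Without control replicate 2 or 3 the change was 0.29 at an adjusted p of 0.071 or 0.070. Lck knockouts had 13.6, 15.1 and 15.5 FPKM and their controls 14.8, 14.3 and 12.1 FPKM, which overlapped. At 8 weeks Bak1 was at 20.1, 20.6 and 16.3 FPKM in Vav knockouts and 21.2, 20.6, 17.03 and 14.5 in transplanted ones, against 14.5, 15.9 and 16.2 in controls. The 8-week Vav change of 0.27 (SE 0.16, adjusted p = 0.28) was of a like size and was not called. Ggnbp1, on the opposite strand, shares 18.2% of the exon bases of Bak1 and averaged 0.433 FPKM, and no source used here says whether counting went by strand.

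Of the genes with only a BH3 domain, Bid was high and Bbc3 and Pmaip1 were low at 8 weeks, though none of these was called against controls. Bid, whose product is cleaved after death receptor signals, was at 10.7, 10.6 and 9.76 FPKM in Vav knockouts and 12.6, 8.55, 6.53 and 11.6 FPKM in transplanted ones, against 6.37, 5.44 and 6.18 FPKM in controls. Every knockout library was above every control, transplanted replicate 3 only just. The changes were 0.70 (SE 0.20, adjusted p = 0.063) and 0.59 (SE 0.19, adjusted p = 0.087), and without that replicate 0.70 (adjusted p = 0.0066) and 0.75 (adjusted p = 0.0044). Leaving out another library gave an adjusted p of up to 0.20 and 0.28. At 4 weeks Bid was at 7.005, 8.56 and 7.05 FPKM in Vav knockouts and 6.59, 6.78 and 7.02 in controls, and at 6.58, 6.16 and 6.55 FPKM in Lck knockouts and 6.78, 6.37 and 6.99 in controls. The Vav change was 0.13 (adjusted p = 0.36), and 0.04 without replicate 2. Bcl2l13, on the opposite strand with a mean of 16.5 FPKM, shares 17.7% of the exon bases of Bid, so without strand some reads of the 2 genes cannot be told apart.

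Bbc3, whose product PUMA is induced by p53 and by glucocorticoids, was at 4.97, 3.11 and 2.86 FPKM in Vav knockouts at 8 weeks, against 7.504, 6.76 and 7.71 FPKM in controls. These groups did not overlap, and the change was -0.87 (SE 0.25, adjusted p = 0.061). The adjusted p was 0.013 without transplanted replicate 3 and up to 0.19 without another library. Transplanted Vav knockouts had 5.65, 4.36, 7.73 and 3.46 FPKM, with replicate 3 above every control and the other three below, and a change of -0.45 (adjusted p = 0.26), or -0.62 (adjusted p = 0.042) without that replicate. Without another library the adjusted p of this change was up to 0.47. At 4 weeks Bbc3 was at 5.996, 2.59 and 6.24 FPKM in Vav knockouts and 5.27, 5.34 and 6.03 in controls. Replicate 2 alone was low, and without it the sign of the change turned, -0.21 with it and 0.12 without it, called in neither case. Lck knockouts had 4.20, 6.59 and 5.98 FPKM and controls 5.96, 8.59 and 6.48 FPKM.

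Pmaip1, which encodes the p53 target NOXA, was the faintest member. At 8 weeks it was listed at 0 in Vav knockout replicate 1 and at 0.421 and 0.141 FPKM in replicates 2 and 3. Transplanted Vav knockouts had 0.222, 0.212 and 0.408 FPKM in replicates 1 to 3 and 0 in replicate 4, against 1.25, 1.499 and 0.663 FPKM in controls. The knockouts lay below every control, but at these levels 1 read of Pmaip1 was worth between 0.0174 and 0.0338 FPKM, so the values rest on few reads. With no filter on low values the changes were -0.84 (adjusted p = 0.055) in Vav knockouts and -0.81 (adjusted p = 0.045) in transplanted ones. At 4 weeks Pmaip1 was at 1.21, 0.570 and 1.11 FPKM in Vav knockouts, against 1.41, 1.46 and 1.81 in controls, all lower, with a change of -0.39 (adjusted p = 0.14), or -0.24 (adjusted p = 0.15) without Vav knockout replicate 2. Lck knockouts had 1.22, 1.102 and 1.92 FPKM and controls 1.44, 1.46 and 1.73, which overlapped.

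Bcl2l11 and Bad had the smallest changes at 8 weeks. Bcl2l11, which encodes BIM, was at 7.48, 5.24 and 5.1998 FPKM in Vav knockouts and 5.85, 6.25, 9.66 and 6.32 FPKM in transplanted ones, against 7.35, 7.14 and 6.48 FPKM in controls at 8 weeks. Transplanted replicate 3 stood above all others, and both knockout groups overlapped the controls (changes of -0.21 and -0.02, the second -0.16 without that replicate). At 4 weeks it was at 8.42, 5.48 and 8.64 FPKM in Vav knockouts, against 6.11, 6.13 and 5.94 FPKM in controls. Replicates 1 and 3 were above every control and replicate 2 below them. The change was 0.25 (adjusted p = 0.34), and 0.43 (adjusted p = 0.0077) without replicate 2. Without another library its adjusted p was up to 0.63. Lck knockouts had 6.96, 6.53 and 7.39 FPKM and controls 6.81, 6.63 and 6.58. Bad, whose product binds BCL2 and BCL-XL, ranged from 3.02 to 5.03 FPKM over the 8-week knockouts and from 3.25 to 4.42 in their controls, and its changes lay between -0.06 and 0.07 in the 4 comparisons with controls, the transplanted change being -0.12 without replicate 3. Gpr137 shares 20.5% of the exon bases of Bad on the opposite strand, at a mean of 1.43 FPKM.

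**Figure D3:**
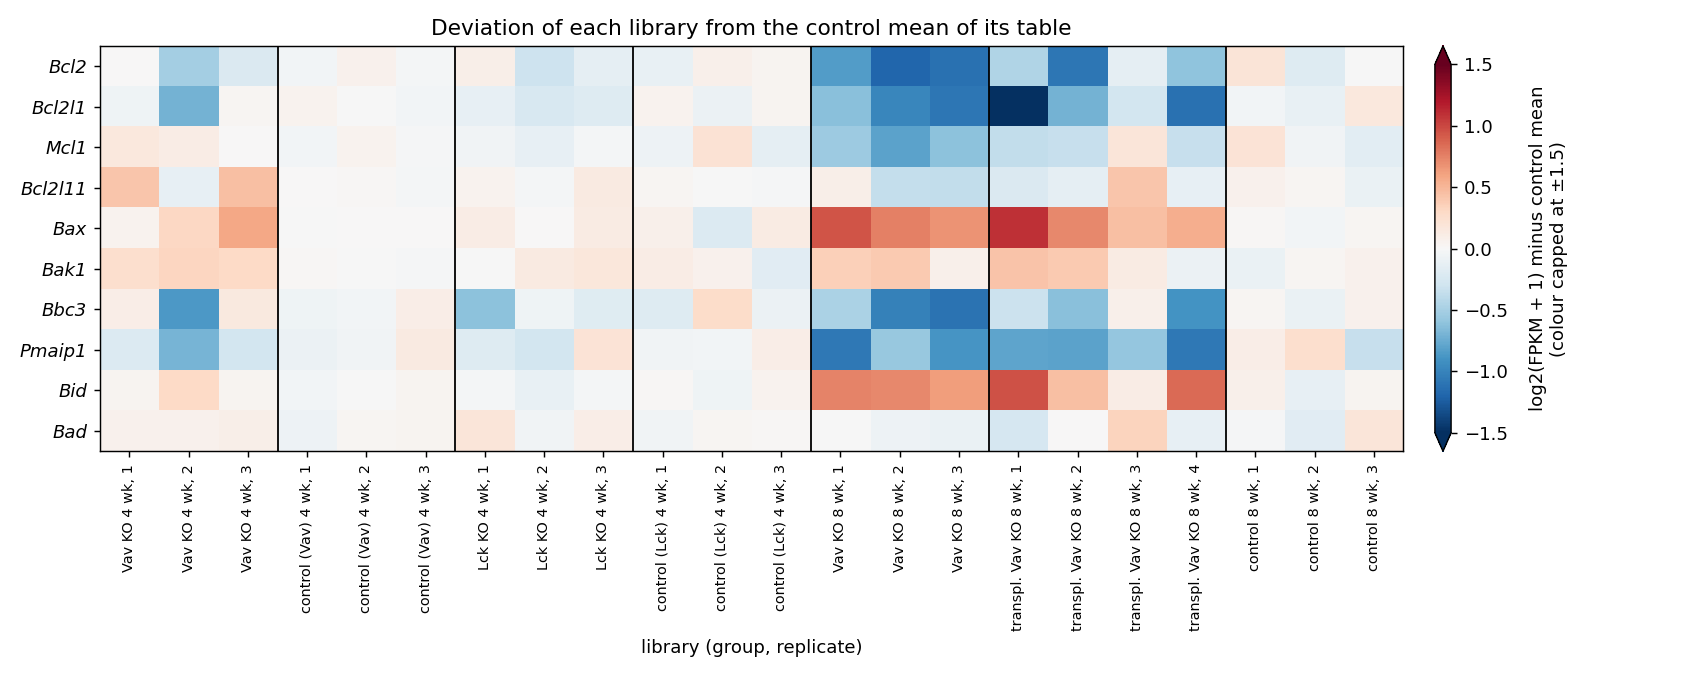
Colour of each cell: log2(FPKM + 1) of a gene in a library minus the control mean of the same table, capped at 1.5 either way; columns are the 22 libraries by group and replicate, knockouts left of their controls ("transpl." marks the transplanted Vav knockouts). The 8-week knockouts are blue for Bcl2 and Bcl2l1 and red for Bax and Bid, with transplanted replicate 3 the palest of its group, and Vav knockout replicate 2 at 4 weeks is the darkest blue of its group for Bcl2, Bcl2l1, Bbc3 and Pmaip1.

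Whether the effect of the Vav deletion differed between the ages was tested as the 8-week change minus the 4-week change, each against its own controls. The ages lay in separate tables. Implied reads per library were 31.1 M to 37.3 M in the 4-week table and 10.8 M to 21.1 M in the 8-week one. Age thus cannot be told apart from table or depth. The change of Mcl1 and Bcl2 was lower at 8 weeks than at 4 weeks, and that of Bid was higher. These were 3 of the 9 genes tested, against 8.87% higher and 9.37% lower of 10489 genes. The difference was -0.74 (SE 0.14, adjusted p = 0.0066) for Mcl1, with a change of -0.65 at 8 weeks and 0.09 at 4 weeks. For Bid it was 0.57 (SE 0.12, adjusted p = 0.0092), with 0.70 at 8 weeks and 0.13 at 4 weeks. For Bcl2 it was -0.81 (SE 0.21, adjusted p = 0.024), with -1.05 at 8 weeks and -0.24 at 4 weeks. The differences of Mcl1 and Bid were called in each of the 19 alternatives run, that of Bcl2 in 10 of 15, with an adjusted p of up to 0.069. Among the 8-week libraries of this fit, Bcl2 passed the filter on low values only through the controls, where it was high. It could thus not be tested when an 8-week control was left out, nor with a mean of 5 FPKM or more. With no filter on low values its adjusted p was 0.069. Bax had a difference of 0.48 (adjusted p = 0.065), Bbc3 -0.66, Bcl2l1 -0.65 and Bcl2l11 -0.46, not called. Without 4-week Vav knockout replicate 2 the last 3 were -0.99 (adjusted p = 0.012), -0.88 (adjusted p = 0.0078) and -0.64 (adjusted p = 0.025), so that 6 of 9 were called, where 2179 of 10320 genes (21.1%) were. Without another library the adjusted p of these 3 was up to 0.39, 0.20 and 0.33. The double-positive markers moved the same way, with 7 of 10 called lower in this difference, and their part in it was not tested.

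**Figure D4:**
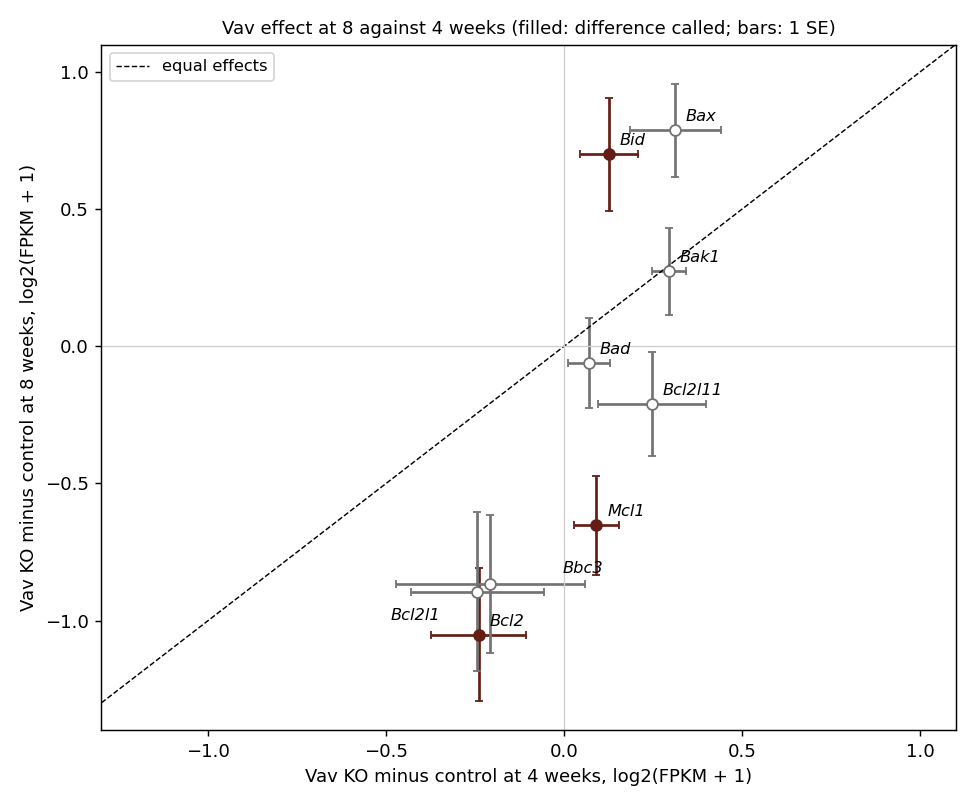
Change of each gene in Vav knockouts against controls at 8 weeks (vertical) and at 4 weeks (horizontal), on the log2(FPKM + 1) scale, with bars of 1 standard error; on the dashed line both changes are equal. Filled symbols mark the differences called, Mcl1 at 0.09 and -0.65, Bid at 0.13 and 0.70 and Bcl2 at -0.24 and -1.05, and Pmaip1 was not tested at 8 weeks.

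The transplanted and untransplanted Vav knockouts of 8 weeks were also compared directly. None of the 9 genes tested (0 of 9) was called by limma, and neither was any of the 11632 genes (0% higher and 0% lower). At an unadjusted p under 0.05 only Mcl1 was higher in the transplanted group, with a difference of 0.43 (SE 0.17, adjusted p = 0.84), or 0.30 (adjusted p = 0.48) without transplanted replicate 3. Bcl2 differed by 0.48 (SE 0.23, adjusted p = 0.84), or 0.34 (adjusted p = 0.66) without that replicate, with means of 1.11 ± 0.557 FPKM (SD, n = 4) in transplanted and 0.477 ± 0.193 FPKM (SD, n = 3) in untransplanted knockouts. Bax averaged 66.4 ± 14.0 FPKM (SD, n = 4) in transplanted and 69.5 ± 6.72 FPKM (SD, n = 3) in untransplanted knockouts, and Bid 9.82 ± 2.78 and 10.4 ± 0.518 FPKM. The transplanted libraries varied more among themselves than the untransplanted ones did for these genes. The absence of calls does not show that the groups were alike.

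At 4 weeks, the Vav effect minus the Lck effect was called for 0 of the 10 genes by limma, also at an unadjusted p under 0.05, against 1.65% higher and 1.65% lower of 10541 genes. The deletions lay in separate tables, with 31.1 M to 37.3 M implied reads for Vav and 5.501 M to 16.2 M for Lck. Deletion thus cannot be told apart from table or depth. The difference between the effects was -0.31 for Pmaip1 (adjusted p = 0.54) and 0.23 for Bax (adjusted p = 0.55). Without Vav knockout replicate 2, Pmaip1 had -0.15 and Bax 0.24, while Bbc3 had 0.41 (adjusted p = 0.37) in place of 0.08. Bcl2l11 had 0.38 (adjusted p = 0.017) in place of 0.20, where 489 of 10445 genes (4.68%) were called. Without another library its adjusted p was up to 0.86.

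The balance between members, as ratios of FPKM within a library, set the 8-week knockouts apart from the controls. The ratio of Bax to Bcl2l1 was 4.51, 5.12 and 5.29 in Vav knockouts and 10.2, 4.15, 2.48 and 4.96 in transplanted ones, against 1.56, 1.56 and 1.34 in controls at 8 weeks. The ratio of Bcl2l11 to Bcl2 was 10.7, 15.7 and 12.9 in Vav knockouts and 4.80, 14.5, 5.42 and 6.25 in transplanted ones, against 2.95, 4.26 and 3.20 in controls. Neither ratio overlapped between knockouts and controls at that age. At 4 weeks the first ratio was 1.67, 3.19 and 2.26 in Vav knockouts and 1.48, 1.56 and 1.59 in controls. The second ratio was 3.42, 3.86 and 4.36 in Vav knockouts and 2.59, 2.35 and 2.49 in controls. Both separated these groups as well. In Lck knockouts the first ratio was 1.54, 1.55 and 1.64, against 1.33, 1.21 and 1.38 in controls, a narrow gap without overlap. The second was 2.77, 3.95 and 3.68 in Lck knockouts and 3.33, 2.68 and 2.76 in controls, which overlapped. The ratios are descriptions of the values above and carry no test.

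**Figure D5:**
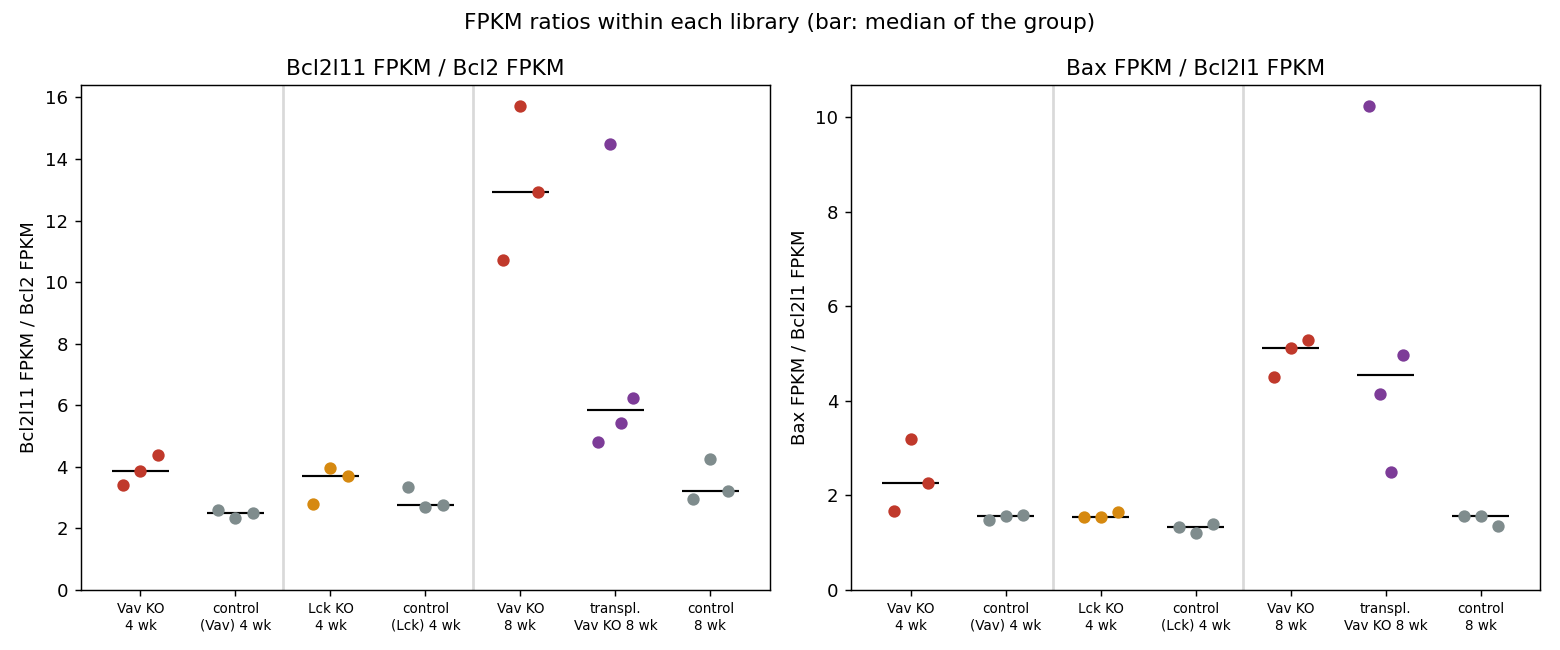
Ratio of FPKM within each library on linear axes, for Bcl2l11 over Bcl2 and Bax over Bcl2l1. Each point is a library, short bars are group medians, and knockout groups stand left of their controls. The 8-week Vav knockouts reach 15.7 and 5.29, against at most 4.26 and 1.56 in the controls of that age.

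Bcl2 lies on chromosome 1 from 106538178 to 106714274 and Bax on chromosome 7 from 45461697 to 45466898, both on the minus strand of mm10 and both protein coding. Their promoters are shown because these are the genes called at 8 weeks and E proteins bind E-boxes. The 250 bases before the transcription start, from RefSeq on GRCm38.p6, are chr1:106714291-106714540 for Bcl2 and chr7:45466899-45467148 for Bax, both minus strand. Each is printed 5′ to 3′ on the strand of the gene, and capitals mark any E-box, CANNTG, which reads as an E-box on both strands.
Bcl2: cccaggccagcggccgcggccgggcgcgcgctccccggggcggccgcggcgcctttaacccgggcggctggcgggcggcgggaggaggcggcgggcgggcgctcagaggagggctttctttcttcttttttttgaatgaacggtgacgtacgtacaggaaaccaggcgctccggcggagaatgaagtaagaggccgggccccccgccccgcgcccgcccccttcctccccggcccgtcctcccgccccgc
Bax: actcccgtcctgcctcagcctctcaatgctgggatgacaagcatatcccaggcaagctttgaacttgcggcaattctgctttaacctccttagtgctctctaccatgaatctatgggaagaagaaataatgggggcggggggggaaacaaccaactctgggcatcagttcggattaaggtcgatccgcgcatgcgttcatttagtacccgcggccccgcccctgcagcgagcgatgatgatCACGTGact
The Bcl2 stretch holds no E-box, and that of Bax holds CACGTG, which begins 9 bases before the start. Neither stretch holds the forms CAGCTG or CAGGTG, and binding by E proteins was not tested. Of the 15 starts listed by RefSeq for the 9 members with an entry, 9 had CANNTG in this window, while 66.2% of 32851 mouse promoters of that length did. The form CACGTG was found at 2 of the 15 starts and in 6.02% of all these promoters. The form CAGGTG, sought on both strands, was found at 2 of the starts and in 17.2% of promoters. The form CAGCTG was found at 0 of the starts and in 13% of promoters. Each of these forms is also counted under the general motif. A match describes letters and not a site.

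Genes beside the family were taken from lists. Of 9 further BCL2 family genes, 2 passed the filter, Bmf and Bik (named after their values were seen), and 0 of 2 were called by limma in any comparison, with 1 higher in the difference between the ages at an unadjusted p under 0.05. Hrk and Bcl2l10 were listed at 0. Another list held 14 genes of caspase activation and its inhibitors, all tested. In Vav knockouts at 4 weeks 2 of them fell and 0 rose, against 6.08% lower and 7.63% higher of all genes. Of those 2, Casp6, which encodes a caspase, changed by -0.29 (adjusted p = 0.044), a call lost in 8 of 13 alternatives (adjusted p up to 0.15). At 8 weeks 0 of 14 were called by limma in either knockout group, with 1 higher and 3 lower in Vav knockouts and 1 lower in transplanted ones at an unadjusted p under 0.05. In the 8-week minus 4-week difference Vdac2, a mitochondrial channel that binds BAK, was called higher (0.36) and Casp6 lower (-0.40), calls lost in 6 and 11 of 19 alternatives (adjusted p up to 0.072 and 0.091).

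Of 8 death receptor genes, 7 were tested. Ripk1, a kinase of the receptor complexes, rose in all 3 Vav comparisons, by 0.53, 0.63 and 0.59 at 4 weeks, at 8 weeks and after transplant (adjusted p = 0.039, 0.026 and 0.025), calls that were lost in some alternatives (adjusted p up to 0.13). It was at 4.34, 4.12 and 4.27 FPKM in Vav knockouts at 8 weeks, against 2.51, 2.62 and 2.05 in controls. Fas, a death receptor, was at 40.01, 37.6 and 40.6 FPKM in Vav knockouts at 4 weeks, against 53.7, 52.9 and 52.1 FPKM in controls (-0.42, adjusted p = 0.0055), and the 8-week effect was lower than that by 1.21 (adjusted p = 0.013). Tnfrsf1a, a receptor of TNF, fell at 8 weeks, by 0.76 in Vav knockouts and 0.88 in transplanted ones (adjusted p = 0.021 and 0.0081; up to 0.095 and 0.057 in alternatives). Cflar, an inhibitor of caspase-8, had a difference of -0.61 between the ages (adjusted p = 0.0030). Over the 3 Vav comparisons the median change lay between -0.30 and -0.12 for the death receptor genes and between -0.18 and -0.02 for the caspase genes, and within 0.01 of 0 over all genes.

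Known regulators of the family formed a list of 14, all tested. In Vav knockouts at 4 weeks 3 of them rose and 1 fell, against 7.63% higher and 6.08% lower of all genes. The list was not tested as a set. Il7r, the interleukin-7 receptor chain that sustains Bcl2 in earlier and mature T cells, was at 3.001, 3.72 and 2.94 FPKM, against 0.539, 0.553 and 0.474 FPKM in controls (1.47, adjusted p = 0.0011). It reached the filter of 1 FPKM in that table only in the Vav knockouts. Il7r was thus tested only because it was high there, and it dropped out when any of them was left out. Lck knockouts had 1.14, 0.852 and 0.882 FPKM and controls 1.85, 1.79 and 1.59. The Vav effect minus the Lck effect was 1.96 (adjusted p = 5.2e-05), with the same limit. Trp53 (p53) rose by 0.30 (adjusted p = 0.024) and Stat5a by 0.26 (adjusted p = 0.020), and Nr3c1, the glucocorticoid receptor, fell by 0.38 (adjusted p = 0.045). Those 3 calls were lost in 6 or 7 of 13 alternatives each, with an adjusted p of up to 0.15. At 8 weeks 0 of 14 were called by limma in Vav knockouts, with 3 higher and 3 lower at an unadjusted p under 0.05, and Stat5b fell in transplanted ones (-0.58, adjusted p = 0.034), a call lost in 12 of 18 alternatives. Il7r at 8 weeks was at 16.9, 4.88 and 10.8 FPKM in Vav knockouts and 26.4, 117, 5.51 and 3.14 in transplanted ones, against 0.799, 0.518 and 0.725 in controls.

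The genes whose pattern was most like that of a member were found by Pearson's r of log2(FPKM + 1) minus the control mean of the table, over the 22 libraries and among 8779 genes. For Bcl2l1 they were Fbxl12 (r = 0.971) and Cd4 (0.959), for Bcl2 Twf2 (0.943) and Itpkb (0.939), for Mcl1 Tmem127 (0.9199) and Mast3 (0.914), and for Bcl2l11 Resf1 (0.847) and Icmt (0.811). The libraries share tables, controls and the shift of the double-positive markers, so these values describe likeness only.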

How the data were processed

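Total RNA of sorted thymocytes was extracted with RNeasy mini kits, and libraries were prepared by NuGEN Ovation Ultralow chemistry, as the labels' protocols say. The authors deposited FPKM values per gene in 3 tables (1 for each deletion at 4 weeks and 1 for all 8-week groups). The tools Trimmomatic 0.33, STAR, HTSeq 0.6.1 and DESeq2 and the build mm10 are named, per the submitters' processing notes, without a role or order; gene lengths, annotation and the use of strand are not given in the sources used here. Symbols and positions came from GENCODE on the same build (42462 of 43430 genes matched). Each column was matched to a sample by its name, and 0 columns were left unused. Counts could not be recovered: 50.8% to 59.9% of low values were whole reads within 0.03. Depth was therefore read only roughly, and no count model was run. FPKM summed to 198963 to 250725 per library, and 0 pairs of libraries were identical (highest correlation 0.99681).

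After 1 was added, FPKM were log2 transformed and fitted by limma 3.58.1 with a mean-variance trend (R 4.3.3). A gene entered a fit if 3 libraries of every table used reached 1 FPKM, and was called at an adjusted p (Benjamini-Hochberg, all genes) under 0.05. Comparisons at 4 weeks drew on the 6 libraries of a table, the 8-week ones 1 fit of 10 libraries, and the differences of effects 12 libraries. Tables were not compared directly. The procedure was checked on simulated data. Alternatives were another pseudocount, other filters, other scalings, robust variances, a replicate term, 2 groups alone and each library left out. Where a library was left out and 2 remained, these share the spread of the fit. The members and gene lists were chosen with earlier results of these data known. Named beside the 10 members and Tcf3 are called genes of the lists (up to 4 per list and comparison) and the 2 genes most like each of 4 members. Promoters came from RefSeq, 250 bases before each start. Some called genes of the lists are not reported here.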

Additional observations from a re-analysis of the deposited data

Results flagged for a closer look

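A sample far from the others of its group was found for 2 of the 10 members in the transplanted Vav knockouts, the only group of 4. For Mcl1 the gap between replicate 3 and its nearest neighbour was 0.9677 of the range of the group, and for Bcl2l11 it was 0.8777, both above Dixon's critical value at 95%. Chance alone passes that value in about 1 of 20 groups, and 10 were tested.

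Effects of the same deletion differed between the ages, or between the deletions, by the test of the difference itself. Ages and deletions lay in separate tables of unlike depth, so neither can be told apart from table or depth. For the Vav minus the Lck effect at 4 weeks, the log2 difference was -0.491 for Tnfrsf1a and 1.956 for Il7r. In the Vav table Il7r passed the filter on low values only through the knockouts, where it was high. Of the members, the 8-week Vav effect minus the 4-week one was -0.811 for Bcl2, -0.7437 for Mcl1 and 0.5739 for Bid. Among the 8-week libraries of that fit Bcl2 passed the filter only through the controls, where it was high. Of the caspase genes it was -0.4016 for Casp6 and 0.3644 for Vdac2. Among death receptor genes it was -1.211 for Fas, -0.4431 for Tnfrsf1a and -0.614 for Cflar. Among the regulators it was 0.3418 for Trp53 and 0.4866 for Nr3c1. The Tnfrsf1a call was lost in 14 of 19 alternatives between the deletions and in 12 of 19 between the ages, and that of Casp6 between the ages in 11 of 19.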

How the results depend on the processing

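The count of members called moved with the processing, while no called change turned its sign in any alternative run. With a replicate block it was 0 in place of 1 for Vav knockouts at 4 weeks (Bak1, adjusted p = 0.059) and 0 in place of 1 for transplanted ones (Bax, adjusted p = 0.0502). At 8 weeks this setting also left out transplanted replicate 4, whose number no other group has. The Bax change there was 0.76 in place of 0.70. The replicate block changed no other call of a member. Whether replicate numbers pair the samples could not be settled. The deviations of same-numbered libraries correlated between -0.11 and 0.18. For each Vav knockout at 8 weeks the best match among the controls had the same number, at correlations of 0.043 to 0.056. With no filter on low values, the count was 1 in place of 2 in Vav knockouts at 8 weeks (Bcl2, adjusted p = 0.059) and 2 in place of 1 in transplanted ones (Pmaip1 added). With a mean of 5 FPKM or more it was 1 in Vav knockouts at 8 weeks, since Bcl2 is too low to be tested. With only the 2 groups compared it was 6 in Vav knockouts at 8 weeks and 0 in transplanted ones. Leaving out 1 library gave 0 to 2 for Vav knockouts at 4 weeks, 0 to 0 for Lck knockouts, 0 to 6 for Vav knockouts at 8 weeks, 0 to 6 for transplanted ones, 0 to 0 between transplanted and untransplanted ones, 0 to 1 between the deletions and 2 to 6 between the ages. The highest 8-week counts came without transplanted replicate 3, when 30.8% and 33.2% of all genes were called in place of 9.1% and 9.19%, and the counts of 0 without a control or, for the untransplanted ones, a knockout library.

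Over all genes, 1059 were called in Vav knockouts at 8 weeks and 5005 (45.7% of those tested) with only the 2 groups compared. Scaling every library to the same FPKM sum moved the median of all genes in that comparison to -0.12, and the share of calls that were higher to 37.5% in place of 55.7% at 4 weeks (Vav), 4.4% in place of 20% (Lck) and 32.1% in place of 48.6% between the ages. The worth of 1 read was computed only for Pmaip1 and Bcl2, the members with the lowest means. It was up to 0.0665 and 0.01985 FPKM, both in Lck knockout replicate 2. At 8 weeks the highest worth was 0.0338 and 0.0101 FPKM.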
